A study of Mus musculus with 24 samples.

Results

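Rigid culture was set against compliant culture in 67NR, a mouse mammary carcinoma line that the labels call nonmetastatic and that was derived from the same tumour as its sister lines 4TO7 and 4T1. The arrays were taken by title: 8 of the 24 arrays of the series carry 67NR, 4 of them from rigid and 4 from compliant microenvironments. Within each side 2 arrays came from cells given TGF-beta and 2 from cells whose type I TGF-beta receptor was blocked with an inhibitor, a condition the labels call basal. The groups were therefore rigid with TGF-beta, rigid with inhibitor, compliant with TGF-beta and compliant with inhibitor, with 2 arrays each, named set 1 and set 2. All cells had been kept for 6 days in 3-dimensional organotypic culture before total RNA was taken, and no group lacked both agents. The labels give neither the stiffness of the materials nor whether the sets were separate cultures. The p-values therefore measure only the spread between replicate arrays, taken over all 24 arrays, which may be technical.

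Each array measured 558 mouse miRNA probes as a relative intensity, the sample signal over a synthetic reference in a second dye. Levels below are log2 of that intensity after quantile normalization, a difference is rigid minus compliant on the log2 scale with its standard error (SE), and a probe counts as detected where its deposited detection p is under 0.05. A probe was called higher or lower where limma, fitted to all 24 arrays, gave an adjusted p under 0.05 over the 365 probes tested. Between 320 and 324 probes were detected on the rigid arrays and between 313 and 325 on the compliant arrays. Median raw log2 intensity was 7.35 to 7.73 on the rigid and 7.40 to 7.68 on the compliant arrays. Replicate arrays correlated at r = 0.9975 to 0.9986 across probes. The first principal component of the 8 arrays (50.4% of the variance) separated TGF-beta from inhibitor arrays, and the second (26.2%) separated rigid from compliant arrays. Of the epithelial markers checked against the label, miR-203 and miR-141 were detected on all 8 arrays, miR-200a on 1, and miR-200b, miR-200c, miR-429 and miR-205 on none. The mesenchymal markers miR-214 and miR-145 were detected on all 8.

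MicroRNAs are short RNAs that guide Argonaute proteins to messenger RNAs, mostly through pairing of their seed, bases 2 to 8, and thereby lower the output of those messages. Many are cut from shared precursor transcripts, so neighbouring genes often give levels that move together, and members of a family with the same seed can act on the same targets. Rigid surroundings are sensed through integrins and the actomyosin cytoskeleton, and stiffened matrix is a known feature of mammary tumours, in which it also affects how cells meet TGF-beta.

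Mature sequences of miRNAs described below are given 5′ to 3′ from RefSeq, build GRCm38.p6, with the seed in capitals. For the miR-466, miR-467, miR-669 and miR-297a probes no sequence was used here, and they are named only. The miR-181 family is shown because its members share a seed but did not move alike.
miR-181a: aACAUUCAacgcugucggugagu
miR-181b: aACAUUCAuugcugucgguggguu
miR-181d: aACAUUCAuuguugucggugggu
miR-181c: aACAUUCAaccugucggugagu

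Compared base by base from the 5′ end, miR-181b and miR-181d are the same at 22 of 23 positions and miR-181a and miR-181b at 20 of 23. MiR-181c matches each of the others at only 10 or 11 of 22 positions in this alignment without gaps. These counts are low because miR-181c lacks 1 base that miR-181a has, which shifts the positions after it. With that gap allowed, miR-181c equals miR-181a at all 22 of its bases. MiR-181a and miR-181b are encoded side by side on chromosome 1 (chr1:137966468-137966490 and chr1:137966650-137966673, plus strand, in no annotated gene). A second pair lies on chromosome 2 (chr2:38852741-38852763 and chr2:38853845-38853868, plus strand) within the annotated span of Nr6a1 and its antisense RNA Nr6a1os. MiR-181c and miR-181d form another pair, at chr8:84178924-84178945 and chr8:84178759-84178781 on the minus strand.

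The miRNAs that rose are shown next, since miR-193b and miR-193 share a seed and miR-365 is encoded beside miR-193b, at chr16:13453895-13453916 and chr16:13449570-13449591 on the plus strand, with a further miR-365 copy on chromosome 11.
miR-193b: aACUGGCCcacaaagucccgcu
miR-193: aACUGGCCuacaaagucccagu
miR-365: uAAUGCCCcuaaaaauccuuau
miR-125b-5p: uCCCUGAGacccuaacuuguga
miR-99b: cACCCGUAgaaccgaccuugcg
miR-574-5p: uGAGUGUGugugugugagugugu
miR-706: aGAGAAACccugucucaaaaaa
miR-431: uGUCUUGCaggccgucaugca

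Of these, miR-574-5p lies at chr5:64970328-64970350 within the spans of Fam114a1 and Tlr6, miR-706 at chr6:120034290-120034311 (minus strand) within that of Wnk1, and miR-431 at chr12:109590459-109590479 within that of Rtl1. MiRNAs outside the miR-181 family that fell are shown for the differences in their seeds. MiR-183 was not called and is printed beside its cluster members. MiR-182, miR-96 and miR-183 come from 1 cluster (chr6:30165962-30165986, chr6:30169506-30169528 and chr6:30169711-30169732, minus strand) and have 3 different seeds. MiR-208b lies within the span of the myosin gene Myh7 (chr14:54975710-54975731, minus strand) and miR-149 within that of Gpc1 (chr1:92850381-92850403, plus strand).
miR-182: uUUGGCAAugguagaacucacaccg
miR-96: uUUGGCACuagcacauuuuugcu
miR-183: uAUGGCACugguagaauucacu
miR-9: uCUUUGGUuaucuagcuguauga
miR-208b: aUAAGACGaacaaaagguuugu
miR-149: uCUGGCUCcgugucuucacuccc

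In rigid cultures 67NR cells had more of a group of repeat-containing miRNAs (miR-466h, miR-466f-5p, miR-574-5p and others), of miR-706, and of miR-193b, miR-193, miR-365, miR-125b-5p and miR-99b. They had less of miR-181a, miR-181b and miR-181d, of miR-208b, miR-9 and miR-182, and of others named below. In all 40 of 365 probes were called (11%), 23 higher (6.3%) and 17 lower (4.66%), and 87 had an unadjusted p under 0.05. The differences were small: the largest rise was 1.56-fold and the largest fall 1.31-fold, compliant over rigid, and only 2 of the 40 passed 1.5-fold. The median difference over all tested probes was -0.01. These are bulk samples, in which fewer cells of a kind and less of a miRNA per cell cannot be told apart.

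The 4 rigid and 4 compliant arrays did not overlap for 25 of the 40 called probes, 13 higher and 12 lower, against 34 of all 365 tested (9.32%). Of the 40, 30 were detected on all 8 arrays and 3 on none (miR-669a, miR-669b and miR-96). The plot of difference against level shows that the calls were spread over dim and bright probes.

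**Figure D1:**
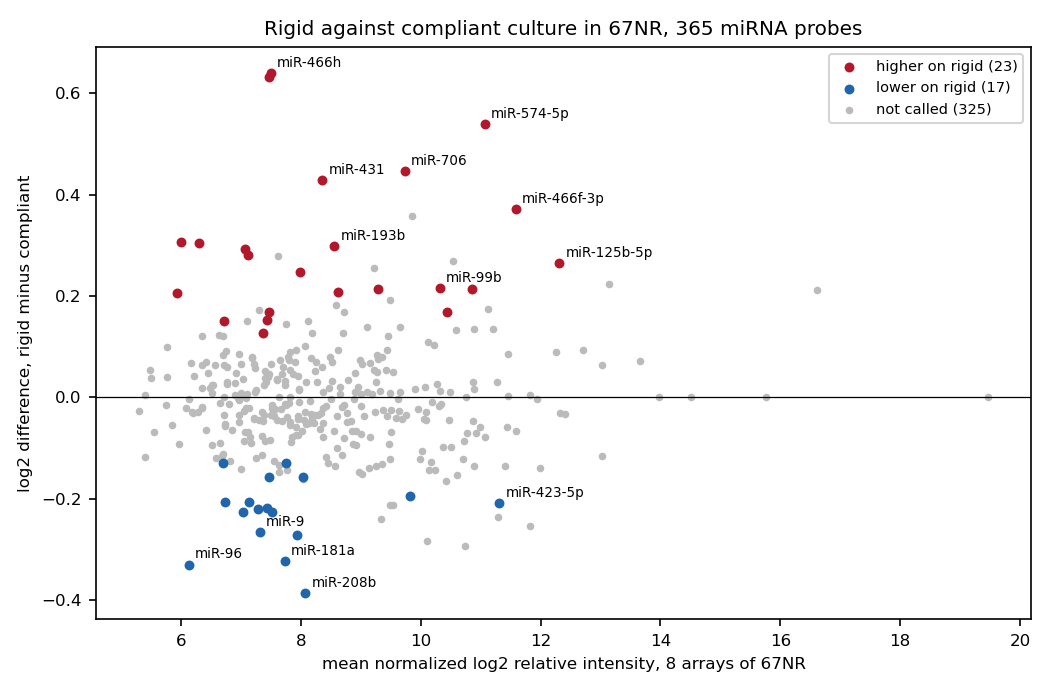
Log2 difference between rigid and compliant 67NR arrays (vertical axis) against the mean normalized log2 relative intensity of the 8 arrays (horizontal axis) for the 365 tested probes. Red points are the 23 called higher on rigid, blue points the 17 called lower and grey points the 325 not called; called differences run from 0.64 (miR-466h) to -0.39 (miR-208b).

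The largest rises belonged to miRNAs of the Sfmbt2 cluster, a mouse cluster in an intron of the imprinted gene Sfmbt2 that is abundant in placenta, and to other miRNAs with the same kind of sequence, long runs of GU on one strand of the hairpin and of CA on the other. MiR-574-5p, printed above, is of this kind. Of the 22 probes of this list on the array 17 were tested, and 10 were called higher and 1 lower, against 6.3% and 4.66% of all tested probes. The median difference of the 17 was 0.28, beside -0.01 over all tested probes. Probes for such repeats can bind more than 1 member, so these probes are not separate measurements and their identities are uncertain.

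MiR-466h had levels of 7.59 and 7.96 on the rigid TGF-beta arrays and 7.73 and 7.97 on the rigid inhibitor arrays, against 7.27 and 7.12 on the compliant TGF-beta arrays and 7.21 and 7.09 on the compliant inhibitor arrays. Every rigid array lay above every compliant array, by a difference of 0.64 ± 0.11 (SE, 4 against 4 arrays, limma adjusted p = 0.00157). MiR-466f-5p behaved alike, at 7.54 and 7.90 on rigid TGF-beta and 7.68 and 7.99 on rigid inhibitor arrays, against 7.30 and 7.07 on compliant TGF-beta and 7.22 and 6.995 on compliant inhibitor arrays (0.63 ± 0.10, adjusted p = 0.000962). On the rigid side both were lowest on the TGF-beta set 1 array, which also had the lowest median raw intensity of the 4 (7.35, against 7.63, 7.69 and 7.73). The ranges of that median on rigid and compliant arrays overlapped, and its part in the result was not tested.

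MiR-574-5p, a GU-repeat strand, reached 11.06 and 11.40 on rigid TGF-beta arrays and 11.38 and 11.52 on rigid inhibitor arrays. On the compliant side it was 11.06 and 10.73 with TGF-beta and 10.76 and 10.65 with the inhibitor. The difference was 0.54 ± 0.12 (adjusted p = 0.00689), and 1 rigid array met 1 compliant array at 11.06. MiR-574-3p, the other strand of that hairpin, differed by 0.36 ± 0.18 and was not called (adjusted p = 0.245).

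MiR-466f-3p, a CA-repeat strand, rose by 0.37 ± 0.11 (adjusted p = 0.0356), with levels of 11.52 to 12.01 on rigid and 11.27 to 11.58 on compliant arrays. This call was lost without rigid TGF-beta set 2, rigid inhibitor set 2, compliant TGF-beta set 2 or either compliant inhibitor array, each left out alone. MiR-466c-5p rose by 0.25 ± 0.04 (adjusted p = 0.000357), with 8.05 to 8.17 on rigid and 7.77 to 7.97 on compliant arrays. MiR-466d-5p, detected on 2 rigid arrays and no compliant array, rose by 0.29 ± 0.06 (means 7.22 and 6.92, adjusted p = 0.00414). MiR-297a, with the same detection, was 1.20-fold higher (means 6.15 and 5.84, adjusted p = 0.00661). That ratio set its rigid mean against the lowest detected signal per compliant array, or its own signal where that was higher. A probe shared by several miR-466 3p strands, detected on 1 of the 8 arrays, rose by 0.28 ± 0.05 (7.26 and 6.98, adjusted p = 0.000962). These rises are between signals mostly not above background. MiR-669a (6.45 and 6.15) and miR-669b (6.04 and 5.83) were called higher but detected on no 67NR array. MiR-467e went the other way, at 7.27 to 7.38 on rigid and 7.50 to 7.58 on compliant arrays (-0.22 ± 0.04, adjusted p = 0.00121). The remaining 6 tested probes of the list, not called, differed by -0.05 to 0.36.

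MiR-706 had the smallest p of all. It stood at 9.90 and 10.05 on rigid TGF-beta arrays and 9.93 and 9.93 on rigid inhibitor arrays, against 9.55 and 9.51 on compliant TGF-beta arrays and 9.56 and 9.42 on compliant inhibitor arrays. The groups did not overlap, and the difference of 0.45 ± 0.04 (1.36-fold, adjusted p = 1.25e-05) was nearly equal with TGF-beta (0.45) and with the inhibitor (0.44).

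**Figure D2:**
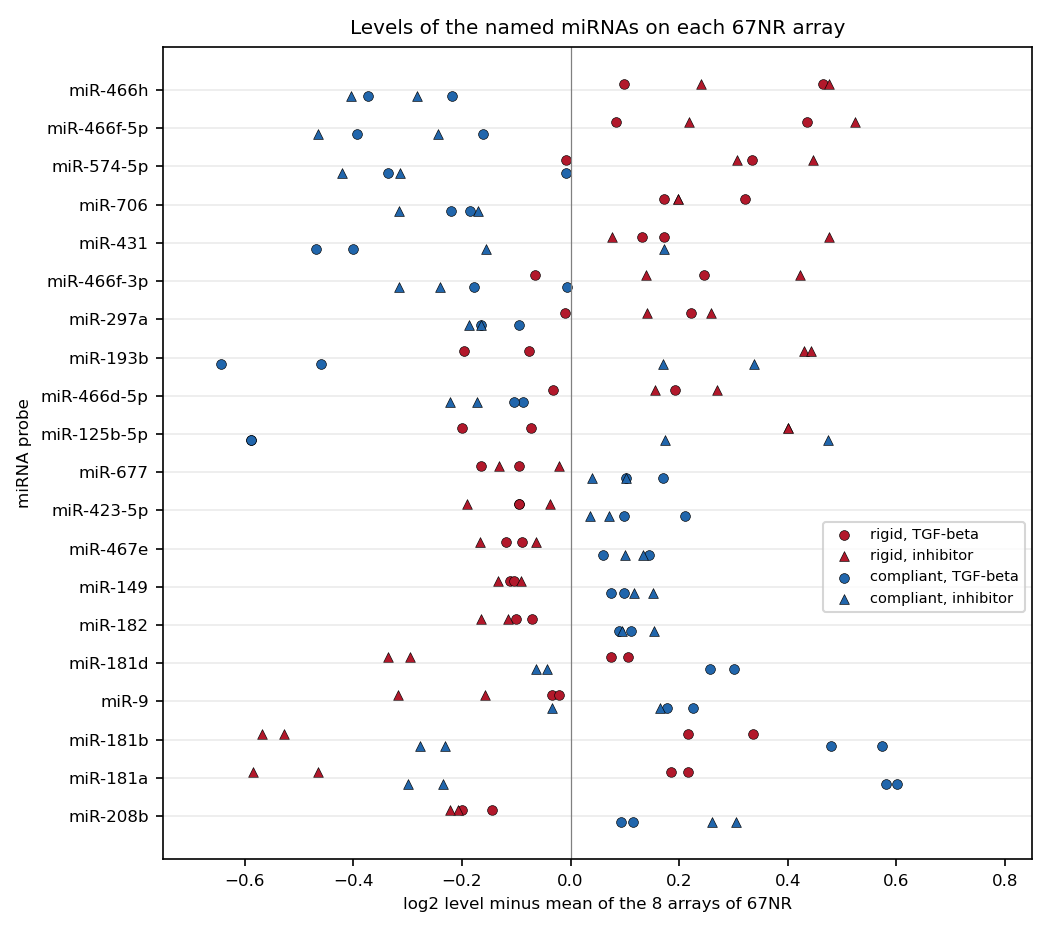
Normalized log2 level of each named miRNA on each 67NR array, minus its mean over the 8 arrays (horizontal axis), with 1 row per probe from the largest rise to the largest fall. Red symbols are rigid and blue symbols compliant arrays, circles TGF-beta and triangles inhibitor; miR-706 and miR-466h separate by microenvironment alone, while miR-181a, miR-181b, miR-193b and miR-125b-5p also separate by treatment.

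The miR-181 family, known for roles in lymphocyte development and for induction by TGF-beta, was lower in rigid culture for 3 of 4 members, against 4.66% of all tested probes called lower. The family median was -0.25, beside -0.01 over all tested probes. MiR-181b matches miR-181d at 22 of 23 positions and miR-181a at 20 of 23. Whether the probes of these 3 miRNAs also bind each other's miRNAs was not tested. The 3 calls and the family median may therefore not rest on separate measurements. MiR-181a was at 7.94 and 7.91 on rigid TGF-beta arrays and 7.26 and 7.14 on rigid inhibitor arrays, against 8.31 and 8.33 on compliant TGF-beta arrays and 7.49 and 7.43 on compliant inhibitor arrays. Within each treatment both rigid arrays lay below both compliant arrays, while over both treatments the 4 and 4 arrays overlapped. It fell by 0.32 ± 0.04 (adjusted p = 4.26e-05).

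MiR-181b, made from the same 2 precursor pairs, was at 8.26 and 8.14 on rigid TGF-beta and 7.40 and 7.36 on rigid inhibitor arrays, against 8.41 and 8.50 on compliant TGF-beta and 7.70 and 7.65 on compliant inhibitor arrays. It fell by 0.27 ± 0.04 (adjusted p = 0.000414). MiR-181d fell by 0.23 ± 0.04 (adjusted p = 0.000962), with 7.60 to 7.63 on rigid against 7.78 to 7.82 on compliant arrays under TGF-beta, and 7.18 to 7.23 on rigid against 7.46 to 7.48 on compliant arrays under the inhibitor. MiR-181c, encoded 142 bases from miR-181d and with the same seed, differed by -0.05 ± 0.04 and was not called (adjusted p = 0.56). Its difference was 0.06 with TGF-beta and -0.15 with the inhibitor.

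The size of the rigidity difference can be read beside that of the treatment, which was measured on the same 8 arrays. For miR-181a the difference was -0.32 between rigid and compliant culture and 0.79 between TGF-beta and inhibitor. For miR-181b these were -0.27 and 0.80, and for miR-181d -0.23 and 0.37. Rigid arrays with TGF-beta were therefore above compliant arrays with the inhibitor for all 3 miRNAs.

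MiR-193b, which represses the urokinase gene in human breast cancer cells, was higher in rigid culture together with its neighbour miR-365 and with miR-193. All 3 of this list were called higher, against 6.3% of all tested probes, with a median difference of 0.21. MiR-193b had 8.36 and 8.48 on rigid TGF-beta arrays and 8.99 and 9.00 on rigid inhibitor arrays, against 7.91 and 8.10 on compliant TGF-beta arrays and 8.89 and 8.73 on compliant inhibitor arrays. The rigid arrays were higher within each treatment, and the difference was 0.30 ± 0.07 (adjusted p = 0.00791).

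MiR-193 rose by 0.21 ± 0.06 and miR-365 by 0.21 ± 0.06 (adjusted p = 0.037 for both). MiR-193 had 10.45 and 10.61 on rigid and 10.25 and 10.26 on compliant arrays under TGF-beta, and 11.40 and 11.38 on rigid against 11.30 and 11.16 on compliant arrays under the inhibitor. These 2 calls were weak: the miR-365 call was lost in each of the 8 fits without 1 array and the miR-193 call in each except those without rigid TGF-beta set 1 or compliant inhibitor set 1. In the comparison of treatments on these arrays the 3 miRNAs moved the other way, by -0.69 for miR-193b, -0.92 for miR-193 and -0.59 for miR-365 with TGF-beta.

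MiR-125b-5p and miR-99b were the called members of the miR-99, miR-100 and miR-125 families, in which 2 of 7 were higher, against 6.3% of all tested probes, and the median was 0.00. MiR-125b is the mammalian relative of lin-4, the first miRNA found in the nematode, and miR-99 family members repress mTOR. MiR-125b-5p was at 12.11 and 12.24 on rigid TGF-beta and 12.71 and 12.71 on rigid inhibitor arrays, against 11.72 and 11.72 on compliant TGF-beta and 12.78 and 12.48 on compliant inhibitor arrays. With the inhibitor the rigid values fell between the compliant ones, and the difference of 0.26 ± 0.06 (adjusted p = 0.012) was 0.45 with TGF-beta and 0.08 with the inhibitor. Under median scaling the miR-125b-5p difference was 0.25 and no longer passed, and the call was also lost without rigid TGF-beta set 2 or compliant inhibitor set 2.

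MiR-99b had 10.42 and 10.49 on rigid TGF-beta and 10.39 and 10.39 on rigid inhibitor arrays, against 10.15 and 10.21 on compliant TGF-beta and 10.22 and 10.26 on compliant inhibitor arrays. The groups did not overlap (0.21 ± 0.05, adjusted p = 0.008). Its neighbours within 601 bases on chromosome 17, let-7e (-0.11) and miR-125a-5p (0.00), were not called, and neither was its other strand, miR-99b* (0.07 ± 0.04, adjusted p = 0.267).

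MiR-431, of the imprinted Dlk1-Dio3 cluster and antisense to Rtl1, rose by 0.43 ± 0.11 (adjusted p = 0.0151). It was at 8.53 and 8.49 on rigid TGF-beta arrays and 8.43 and 8.83 on rigid inhibitor arrays, against 7.89 and 7.96 on compliant TGF-beta arrays and 8.53 and 8.20 on compliant inhibitor arrays. The lowest rigid value, 8.43, lay below the highest compliant value, 8.53. Its other strand, miR-431*, differed by 0.05 ± 0.04 and was not called. The call was lost without the rigid inhibitor set 2, compliant TGF-beta set 1 or compliant inhibitor set 2 array, at differences of 0.33, 0.41 and 0.35. Of the 33 tested probes of the Dlk1-Dio3 cluster only miR-431 and miR-495 (0.15 ± 0.04, adjusted p = 0.0395) were called, the latter lost without any 1 of the 8 arrays, and the cluster median was 0.02. That is 2 of 33 called higher, close to the 6.3% over all tested probes.

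Lower in rigid culture were several miRNAs best known from other tissues. MiR-208b, encoded in the slow muscle myosin gene Myh7, was at 7.92 and 7.87 on rigid TGF-beta and 7.86 and 7.84 on rigid inhibitor arrays, against 8.18 and 8.16 on compliant TGF-beta and 8.33 and 8.37 on compliant inhibitor arrays. It fell by 0.39 ± 0.07 (adjusted p = 0.00185) without overlap. The other tested muscle marker, miR-206, was at 7.22 to 7.41 on rigid and 7.23 to 7.63 on compliant arrays and was not called (-0.11 ± 0.04, adjusted p = 0.0797). Summed over the 6 muscle markers on the array, the linear level was 619 to 643 on rigid and 673 to 765 on compliant arrays, a sum that contains miR-208b itself and 4 probes detected on no 67NR array.

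MiR-9, a neural miRNA that lowers E-cadherin in human breast cancer cells, was at 7.28 and 7.29 on rigid TGF-beta and 7.16 and 6.995 on rigid inhibitor arrays. On the compliant side it was at 7.54 and 7.49 with TGF-beta and 7.48 and 7.28 with the inhibitor, so that the sides overlapped only at 7.28 and 7.29. It fell by 0.27 ± 0.05 (adjusted p = 0.00157). The other 4 tested neural and liver markers were not called, and miR-128 was detected on no 67NR array.

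MiR-182, of a cluster best known from sensory cells, fell by 0.23 ± 0.05 (adjusted p = 0.00852). MiR-182 was at 6.97 and 6.94 on rigid TGF-beta and 6.92 and 6.87 on rigid inhibitor arrays, against 7.15 and 7.13 on compliant TGF-beta and 7.13 and 7.19 on compliant inhibitor arrays, with no overlap. It was detected on 3 rigid and 4 compliant arrays. MiR-96 and miR-183 were detected on no 67NR array. MiR-96 was called lower (means 5.96 on rigid and 6.29 on compliant arrays, adjusted p = 0.00869), a call lost without either set 2 rigid array, and miR-183 was not called.

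MiR-149 was close to its detection limit, above background on no rigid array and on 1 compliant array. Its values were 7.16, 7.17, 7.14 and 7.18 on the rigid arrays and 7.35, 7.38, 7.43 and 7.39 on the compliant arrays, so that the sides were far apart for their spread (-0.22 ± 0.02, adjusted p = 4.08e-05). That is 1.17-fold lower in rigid culture, a ratio between signals mostly not above background. MiR-203, a skin miRNA that represses p63, fell by 0.16 ± 0.04 (adjusted p = 0.0082), with 7.87 to 8.08 on rigid and 8.10 to 8.14 on compliant arrays, and was not called under median scaling or without rigid TGF-beta set 2. MiR-423-5p fell by 0.21 ± 0.05 (adjusted p = 0.00761), with 11.11 to 11.27 on rigid and 11.34 to 11.52 on compliant arrays, but under both median scalings and in the authors' value table its difference was -0.13 to -0.15 and did not pass. MiR-677 fell by 0.21 ± 0.04 (adjusted p = 0.00376), with 6.97 to 7.12 on rigid and 7.18 to 7.31 on compliant arrays.

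The remaining calls were smaller. Rises of 0.13 to 0.21 were called for miR-491, miR-330*, miR-139-3p, miR-708* and miR-742. Falls of 0.13 to 0.21 were called for miR-542-3p, a probe shared by miR-291a-5p and miR-291b-5p, miR-695, miR-425* and miR-7a, a miRNA that represses the EGF receptor.

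Other families gave no call, where 11% of all tested probes were called and 197 of the 365 differences were below 0. In the let-7 family, which restrains growth-promoting genes such as Ras, 0 of 9 were called and all 9 differences were below 0, from -0.14 to -0.04, with a median of -0.11. The miR-15 and miR-16 seed family had 0 of 6 called and 6 of 6 below 0 (median -0.09). Among 12 tested probes of the miR-17 clusters, 8 of them detected in 67NR, none was called and 10 were below 0 (median -0.07). The miR-29 family, which represses collagens, the miR-30, miR-26 and miR-34 families, the miR-23 clusters, the miR-130 family and miR-221 and miR-222 likewise had no called member, with medians between -0.12 and 0.10. A miss of the threshold does not show that these levels did not differ.

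Of 14 tested miRNAs that the literature reports as responding to stiffness or force, 1 was called and it was lower (miR-203), against 4.66% lower over all tested probes, with a list median of 0.04. That call was lost under both median scalings. MiR-21, the brightest of them and an oncogenic miRNA raised in many tumours, averaged 13.25 on rigid and 13.02 on compliant arrays, a difference of 0.22 ± 0.08 that was not called (adjusted p = 0.115). MiR-29a differed by 0.13 ± 0.07 and miR-145 by 0.07 ± 0.06, neither called. Of 7 tested miRNAs reported as TGF-beta induced, only miR-181a and miR-181b were called, both lower, against 4.66% of all tested probes. These 2 are close in sequence and made from the same precursor pairs. Among reported promoters of metastasis 2 of 8 were lower (miR-9 and miR-182), against 4.66% of all tested probes, and among reported suppressors 1 of 10 was higher (miR-193b), against 6.3%.

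Markers of other cell types were read as follows. None of the 2 endothelial markers passed the filter, and of 6 blood markers 1 was tested, miR-451 (means 10.16 on rigid and 10.31 on compliant arrays), and not called (-0.14). Over all tested probes 11% were called in either direction and 4.66% lower. Of 6 tested fibroblast and mesenchymal markers 0 were called (median 0.00), with a summed linear level of 14900 on all rigid arrays, to 3 digits, and 12600 to 15000 on compliant arrays. Of 7 tested epithelial markers 1 was called, miR-203, with summed levels, miR-203 included, of 632 to 656 on rigid and 664 to 687 on compliant arrays. Of these epithelial probes 4 were detected on no 67NR array. Of 6 tested embryonic stem cell probes 1 was called, that of miR-291a-5p and miR-291b-5p (-0.19 ± 0.05, adjusted p = 0.0174, lost without any 1 of the 4 set 1 arrays), with summed levels, that probe included, of 2700 to 2850 on rigid and 2870 to 2990 on compliant arrays. The part of these markers in the other differences was not tested.

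The comparison was repeated within each treatment, 2 against 2 arrays. Within a treatment the rigid and the compliant 67NR arrays lay on different slides, so microenvironment and slide cannot be told apart there. With TGF-beta 18 probes were called (4.93%), 10 higher (2.74%) and 8 lower (2.19%), and with the inhibitor 29 (7.95%), 16 higher (4.38%) and 13 lower (3.56%). These 2 comparisons share no arrays but take the spread of each probe from the same fit. Calls in both are therefore not independent. Called in both were 8 probes: miR-706, miR-149, miR-181a, miR-181b, miR-181d, miR-466f-5p, miR-467e and the shared miR-466 3p probe. The counts rested on few arrays: without 1 array they ranged from 2 to 18 with TGF-beta and from 6 to 32 with the inhibitor, and with the fit restricted to 67NR they were 0 and 16. With slide as a fixed block they were 8 with TGF-beta and 4 with the inhibitor.

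MiR-149 differed by -0.19 ± 0.04 with TGF-beta (adjusted p = 0.007) and by -0.25 ± 0.04 with the inhibitor (adjusted p = 0.000714). MiR-677 differed by -0.27 ± 0.06 with TGF-beta (adjusted p = 0.0239) and by -0.15 ± 0.06 with the inhibitor, where it was not called (adjusted p = 0.163). MiR-208b differed by -0.28 ± 0.10 with TGF-beta, not called (adjusted p = 0.147), and by -0.50 ± 0.10 with the inhibitor (adjusted p = 0.0081). All 40 probes called over both treatments had the same sign in each, which their choice by the average favours.

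**Figure D3:**
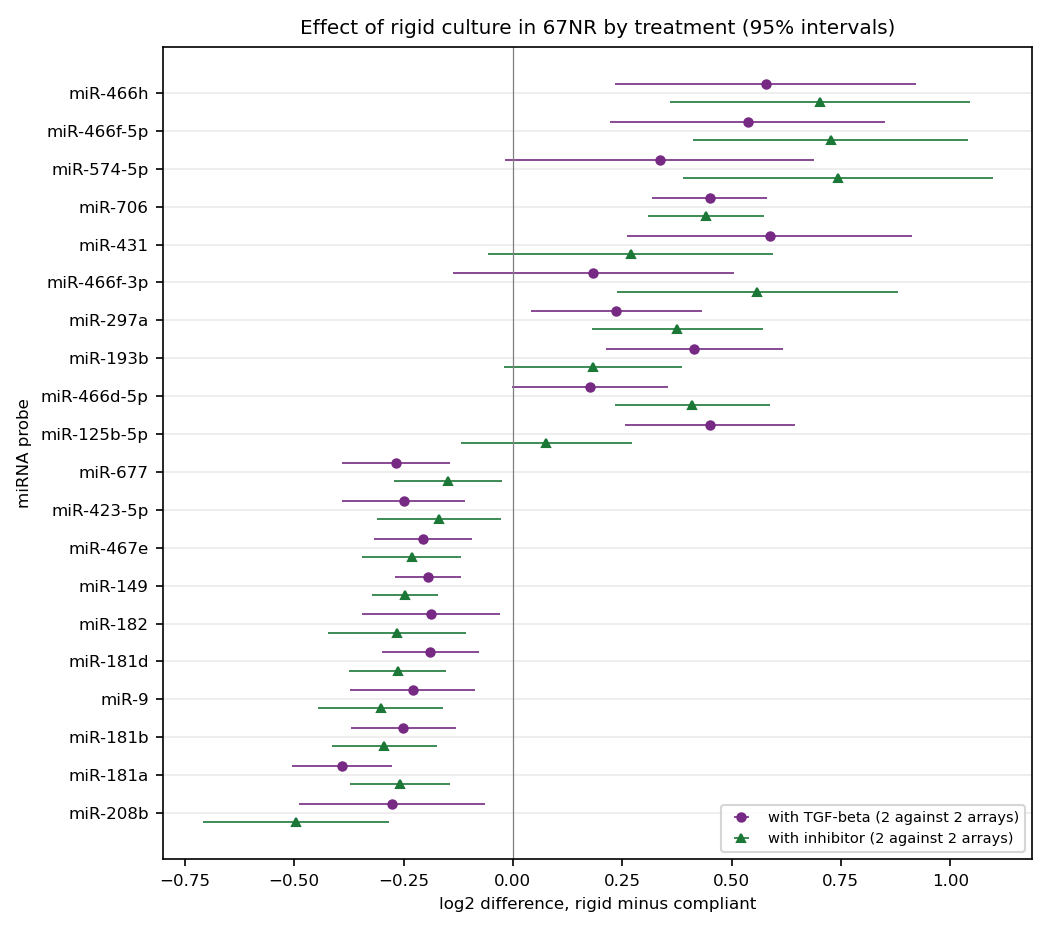
Log2 difference between rigid and compliant 67NR arrays for each named miRNA (horizontal axis), with TGF-beta (circles) and with the inhibitor (triangles), 2 against 2 arrays each, with 95% intervals. The miRNAs shown were chosen for having the same sign under both treatments; miR-125b-5p has the widest relative gap, 0.45 with TGF-beta and 0.08 with the inhibitor.

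Whether rigidity acted differently under the 2 treatments was tested directly as a difference of differences. No probe passed in limma (0 of 365, 0%), and 28 had an unadjusted p under 0.05. The smallest p was that of miR-31*, the other strand of miR-31, a suppressor of metastasis in human breast cancer cells. MiR-31* was 0.25 higher on rigid than on compliant arrays with TGF-beta and 0.11 lower with the inhibitor with an adjusted p of 0.0286 for the TGF-beta arrays alone (difference 0.36 ± 0.08, 95% interval 0.18 to 0.54, adjusted p = 0.251). Its levels were 7.79 and 7.68 on rigid TGF-beta and 7.997 and 7.90 on rigid inhibitor arrays, against 7.46 and 7.51 on compliant TGF-beta and 8.07 and 8.04 on compliant inhibitor arrays. MiR-31 itself differed by 0.35 with TGF-beta and 0.00 with the inhibitor (difference 0.35 ± 0.16, adjusted p = 0.63).

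The next smallest p-values of that test, none of which passed (adjusted p = 0.475 each), belonged to miR-301b (difference 0.23 ± 0.07), miR-377 (-0.28 ± 0.09), miR-186* (-0.31 ± 0.09), miR-292-3p (-0.20 ± 0.07) and miR-206 (0.23 ± 0.08). For the called miRNAs the interval was wide beside the effect: for miR-181a it was -0.30 to 0.03, for miR-466h -0.61 to 0.36 and for miR-125b-5p 0.10 to 0.65, the last with an unadjusted p of 0.011 (adjusted p = 0.475).

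The 8 arrays were spread over 4 slides. Slide 1 held 2 compliant and no rigid 67NR arrays, slide 4 held 2 rigid and no compliant arrays, and slides 3 and 5 held 1 of each. On slide 3 the pair was rigid with inhibitor and compliant with TGF-beta, and on slide 5 rigid with TGF-beta and compliant with inhibitor. A treatment effect thus enters the 2 slides with opposite sign and cancels in their mean. All 40 called probes had the same sign in that mean as over the 8 arrays, of which these 4 are a part. Both slides had the same sign as the 8 arrays for 32 of the 40, against 128 of all 365 tested probes. The exceptions were miR-181a, miR-181b, miR-181d, miR-193b, miR-193, miR-365, miR-125b-5p and miR-9, for which the treatments differed on these arrays too.

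Within slides miR-706 was 0.42 and 0.49 higher on the rigid array, miR-466h 0.85 and 0.50, and miR-466f-5p 0.92 and 0.55. MiR-208b was -0.32 and -0.45, miR-149 -0.19 and -0.23, and miR-182 -0.25 and -0.23. MiR-181a was -1.19 on slide 3 and 0.51 on slide 5, with a mean of -0.34 beside -0.32 over the 8 arrays. With slide as a fixed block 32 probes were called, 31 of them among the 40. With only the 4 arrays of slides 3 and 5 it was 11, all among the 40, in a fit that takes the spread from the other groups and was chosen after the data were seen. In that fit miR-706 (0.45), miR-181a (-0.34), miR-181b (-0.26), miR-466h (0.68) and miR-466f-5p (0.73) passed, and miR-193b (0.27), miR-208b (-0.38) and miR-99b (0.17) did not.

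**Figure D4:**
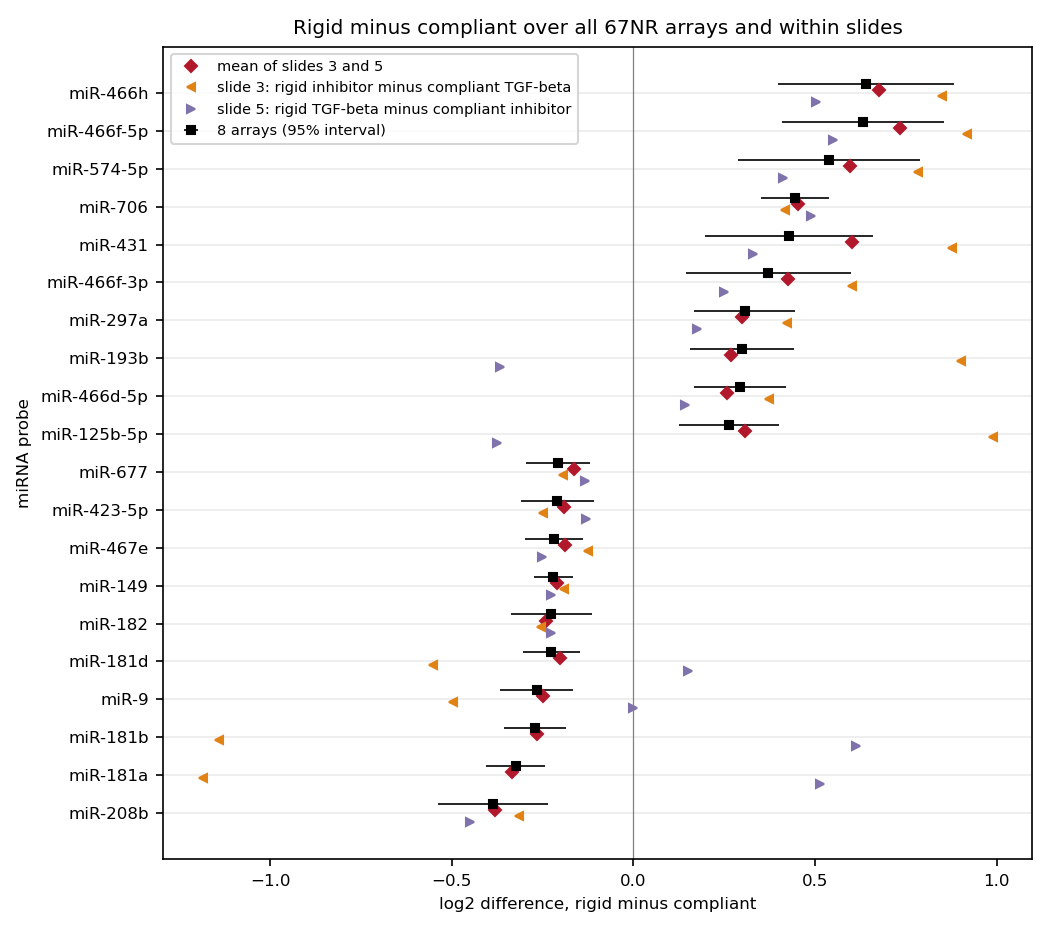
Log2 difference between rigid and compliant 67NR arrays for each named miRNA (horizontal axis) over the 8 arrays (black squares, with 95% intervals), in the mean of slides 3 and 5 (red diamonds) and on each of these slides (orange and violet triangles). The diamonds lie within the 95% intervals of the squares, while the slides stand on opposite sides of 0 for miR-181a, miR-181b, miR-181d, miR-193b and miR-125b-5p, and miR-9 is at 0 on slide 5.

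The difference between rigid and compliant culture in 67NR was then compared with that in 4TO7 and in 4T1, 8 arrays per line, as a test of the difference between the lines. Against 4TO7, which the labels call systemically invasive, 25 probes passed (6.85%), 17 with a higher (4.66%) and 8 with a lower value (2.19%) in 67NR. Against 4T1, called highly metastatic, 20 passed (5.48%), 8 higher (2.19%) and 12 lower (3.29%). The labels do not say how many cultures of each line were used. In 4TO7 most rigid arrays lay on slide 4 and most compliant arrays on other slides, so slide and microenvironment are partly confounded there. With slide as a fixed block 19 probes passed against 4TO7, 14 of them among the 25, with 16 higher and 3 lower. Against 4T1 that fit gave 9, of which 8 were among the 20.

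Of the 17 tested probes of the Sfmbt2 cluster and repeat list, 9 had a higher value in 67NR than in 4TO7 (4.66% of all tested probes) and 1, miR-467e, a lower one (2.19%). Of the 9, miR-669a and miR-669b were detected on no 67NR array, the shared miR-466 3p probe on 1, and miR-466d-5p and miR-297a on 2. For these the 67NR signals were mostly not above background. Against 4T1 only 2 of the 17 were higher (2.19% of all tested probes) and 0 lower (3.29%). MiR-466h differed by 0.64 in 67NR, 0.01 in 4TO7 and 0.14 in 4T1, and 67NR exceeded 4TO7 by 0.63 ± 0.16 (adjusted p = 0.0312). Its excess over 4T1 was not called (adjusted p = 0.0954). MiR-466c-5p differed by 0.25 in 67NR, -0.01 in 4TO7 and 0.03 in 4T1, and 67NR exceeded both 4TO7 (adjusted p = 0.00644) and 4T1 (adjusted p = 0.0172). The list median was 0.28 in 67NR, -0.01 in 4TO7 and 0.07 in 4T1. MiR-706 rose in 67NR (0.45) and in 4T1 (0.44, adjusted p = 4.02e-06 there), where the lines did not differ by the test (adjusted p = 0.985). In 4TO7 it differed by 0.08, less than in 67NR (adjusted p = 0.005).

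MiR-181d differed by -0.23 in 67NR, -0.01 in 4TO7 and 0.00 in 4T1, and 67NR was lower than 4TO7 (adjusted p = 0.0241) and 4T1 (adjusted p = 0.0172). MiR-181a differed by -0.32 in 67NR, -0.07 in 4TO7 and -0.17 in 4T1, and passed against 4TO7 (adjusted p = 0.0112) but not against 4T1 (adjusted p = 0.128). MiR-181b passed against 4T1 (adjusted p = 0.0438) but not against 4TO7 (adjusted p = 0.116). MiR-125b-5p rose in 67NR (0.26) and fell in 4T1 (-0.25, adjusted p = 0.0298), a difference of 0.51 ± 0.09 between the lines (adjusted p = 0.00314).

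For miR-193b the differences were 0.30 in 67NR, -0.02 in 4TO7 and -0.01 in 4T1, and neither line's difference from 67NR passed (adjusted p = 0.0559 and 0.09). MiR-9 was lower on rigid arrays in all 3 lines, by -0.27 in 67NR, -0.28 in 4TO7 and -0.16 in 4T1, each with an adjusted p under 0.05. MiR-149 was lower in all 3 lines as well, by -0.22 in 67NR, -0.17 in 4TO7 and -0.49 in 4T1, where the fall was larger than in 67NR (adjusted p = 0.000168). In 67NR its signals were mostly not above background, so the size of its fall there is uncertain.

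Other gaps between lines belonged to miRNAs that were not called in 67NR itself. MiR-805, a probe whose identity as a miRNA has been doubted, differed by -0.05 in 67NR, 0.31 in 4TO7 and 0.41 in 4T1 (adjusted p = 0.00644 and 0.00049 for the gaps). MiR-222, a repressor of the cell cycle inhibitor p27, differed by 0.08 in 67NR, -0.17 in 4TO7 and -0.29 in 4T1 (adjusted p = 0.033 and 0.00314). MiR-882 differed by -0.12 in 67NR and 0.17 in 4TO7 (adjusted p = 0.00644), and miR-31* by 0.07 in 67NR and -0.24 in 4TO7 (adjusted p = 0.00644). MiR-205, miR-146a and miR-146b also passed, against 4TO7 for the first and against 4T1 for the other two, but none of them was detected on any 67NR array.

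**Figure D5:**
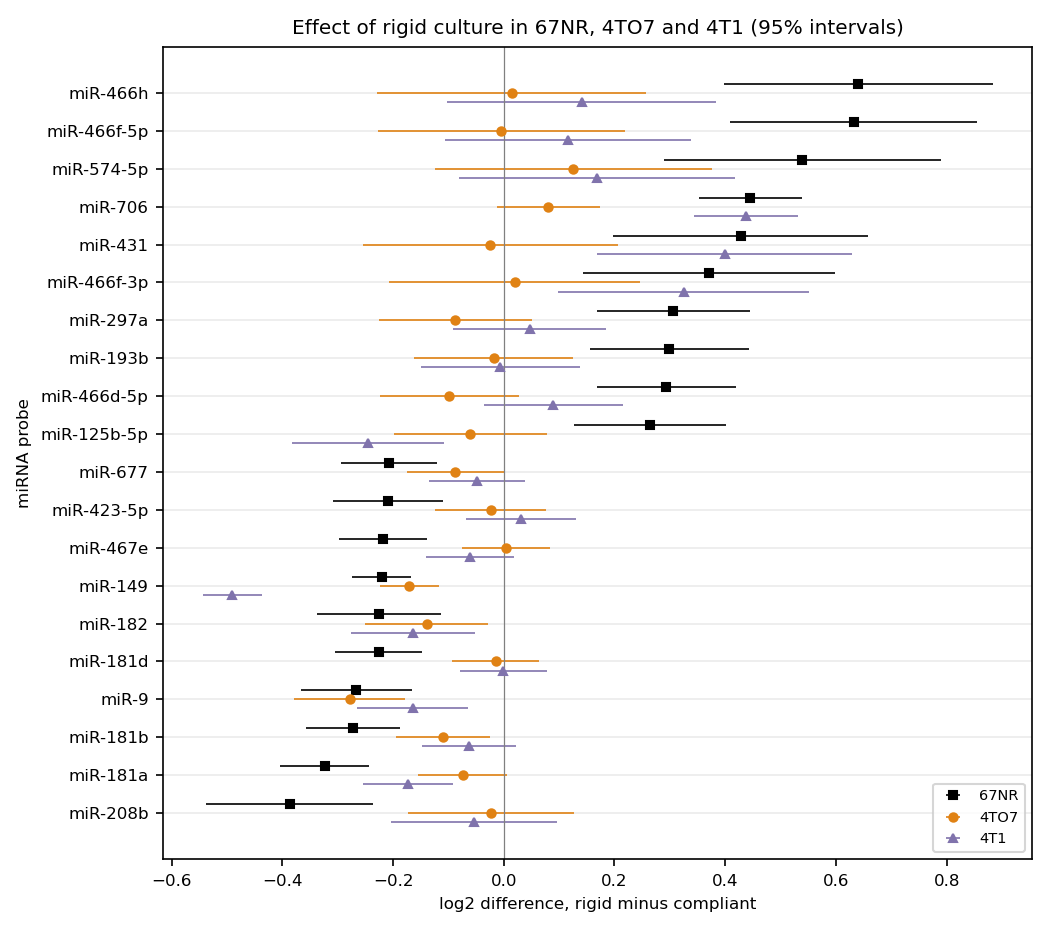
Log2 difference between rigid and compliant arrays (horizontal axis) for each miRNA named in 67NR, in 67NR (black squares), 4TO7 (orange circles) and 4T1 (violet triangles), 4 against 4 arrays per line, with 95% intervals. MiR-466h and miR-466f-5p stand near 0.6 in 67NR and near 0 in 4TO7, miR-706 is alike in 67NR and 4T1, and miR-9 lies below 0 in all 3 lines.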

How the data were processed

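The members and the miRNA lists were chosen with earlier results of these data known. Per the labels, total RNA was labelled with DY649 and hybridised on Dharmacon miRNA arrays. Per the column descriptions deposited with the files, the relative intensity is linear, background-subtracted, set over a synthetic DY547 reference and not normalized between arrays, and each probe has a detection p-value and a fail code. A further table deposited by the authors covers 338 probes, and its log2 values equal the log2 of the intensity plus 1 constant per array. It served as an alternative.

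Quantile normalization of log2 intensity ran over 558 miRNA probes and 24 arrays in limma 3.58.1 (R 4.3.3). Probes detected (p under 0.05) on both arrays of at least 1 of the 12 groups, with the fail code on fewer than 12 arrays, were tested (365). A fit of 12 group means with eBayes and a mean-variance trend gave two-sided p-values, adjusted by Benjamini and Hochberg within each of 6 comparisons. Named were the 10 largest rises and falls with the same sign under both treatments, 1 miRNA name and detection in 67NR, the 6 smallest p of each other comparison, called list members with up to 3 examples, and other strands; the remaining calls and some other list members were named after their values were seen. Array names were paired by hand with RefSeq names, and 49 of 52 matched. The fit was tested on simulated data. Alternatives covered scaling, dim-probe filters, slide and replicate blocks, array weights, the trend, the arrays in the fit and each array left out.

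Deviations of set 1 arrays from their group means correlated between the treatments of one side, at 0.282 on rigid and 0.263 on compliant arrays, and at -0.0925 to -0.00594 between sides. Set numbers were therefore not taken to pair rigid with compliant arrays, but arrays of 1 set on 1 side shared part of their deviation, which the fit treats as independent.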

Additional observations from a re-analysis of the deposited data

Results flagged for a closer look

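In 3 groups of 4 arrays 1 array stood far from the other 3, out of 98 groups checked, and chance alone gives about 1 in 20. MiR-706 was at 10.1 on the rigid TGF-beta set 2 array, against 9.9 to 9.93 on the other rigid arrays. MiR-99b* was at 7.44 on the compliant TGF-beta set 1 array, against 7.66 to 7.68 on the other compliant arrays. MiR-193* was at 6.84 on the rigid inhibitor set 1 array, against 6.66 to 6.67 on the other rigid arrays.

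The rigid-minus-compliant difference in 67NR exceeded that in 4TO7, by limma's test of the difference with Benjamini-Hochberg adjustment, for several repeat-containing miRNAs and for others. The excess was 0.63 for miR-466h (adjusted p = 0.031), 0.64 for miR-466f-5p (0.018), 0.39 for miR-466d-5p (0.011), 0.39 for miR-297a (0.018) and 0.26 for miR-466c-5p (0.0064). It was 0.32 for the shared miR-466 3p probe (0.0099), and 0.42 for miR-669a (0.017) and 0.25 for miR-669b (0.044), which were not detected in 67NR. The others were miR-706 at 0.37 (0.005), miR-125b-5p at 0.32 (0.044), miR-31* at 0.32 (0.0064), miR-222 at 0.26 (0.033) and miR-205 at 0.59 (0.00045), the last detected on no 67NR array. MiR-466d-5p and miR-297a were detected on 2 of the 67NR arrays and the shared miR-466 3p probe on 1.

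The difference in 67NR was below that in 4TO7 for miR-208b by -0.36 (adjusted p = 0.039), miR-805 by -0.36 (0.0064), miR-882 by -0.29 (0.0064), miR-181a by -0.25 (0.011), miR-467e by -0.22 (0.019) and miR-181d by -0.21 (0.024). Against 4T1 it was higher for miR-146a by 0.68 and miR-146b by 0.57 (adjusted p = 9.6e-05 for both), neither detected in 67NR, and for miR-125b-5p by 0.51 (0.0031), miR-222 by 0.38 (0.0031), miR-149 by 0.27 (0.00017), the shared miR-466 3p probe by 0.24 (0.044) and miR-466c-5p by 0.21 (0.017). It was lower than in 4T1 for miR-805 by -0.46 (0.00049), miR-423-5p by -0.24 (0.047), miR-181d by -0.23 (0.017), miR-181b by -0.21 (0.044) and miR-203 by -0.20 (0.034). The signals of miR-149 and of the shared miR-466 3p probe were mostly not above background in 67NR.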

How the results depend on the processing

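Of the 40 calls, 21 passed under each of the 19 alternatives listed at the start that measured the probe, and 9 under each of the 22 run that measured it. Those 9 were miR-706, miR-149, miR-181a, miR-181b, miR-9, miR-466h, miR-466f-5p, miR-466c-5p and the shared miR-466 3p probe. The authors' table measured 37 of the 40 and the 67NR detection filter 32. No result reversed. Under other scalings, filters, slide blocks, array weights, no trend or a fit to 67NR alone the count was 31 to 46, and without 1 array 27 to 43. With the set number as a replicate block, although the numbers do not pair rigid with compliant arrays, it was 48, including all 40. A few further alternatives were chosen after seeing the data: 11 probes passed with slides 3 and 5 alone, 24 without slide 1 and 18 without slide 4, each with fewer 67NR arrays.

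With the inhibitor the 29 calls became 19 under scaling on probes detected on all 24 arrays, 4 with slide as a fixed block and 16 in 67NR alone. Without 1 array they were 6 (rigid inhibitor set 2) to 32, with 9 and 18 without compliant inhibitor set 1 and set 2. With TGF-beta the 18 calls became 9 under that scaling, 9 without a detection filter, 8 with the slide block, 33 with array weights, 11 without the trend and 0 in 67NR alone. Without 1 array they were 2 (rigid TGF-beta set 2) to 18, with 10 without rigid TGF-beta set 1 and 5 and 4 without compliant TGF-beta set 1 and set 2. The treatment-dependent count stayed at 0 in every fit run.

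Against 4TO7 the 25 calls became 14 over probes detected in 67NR and 11 (without rigid TGF-beta set 2) to 21 without 1 array, with 15 and 14 without compliant TGF-beta set 1 and compliant inhibitor set 2. Against 4T1 the 20 became 12 under either median scaling, 9 with the slide block, 12 with only the compared lines, and 9 (without rigid TGF-beta set 2) to 21 without 1 array, with 13 without compliant inhibitor set 2. Apart from fits with fewer arrays or probes, the cause of these shifts was not tested. Signal over background limits 35 tested probes, which were detected on no 67NR array.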
